A study of Mus musculus with 18 samples.

Results

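The Wnt ligands, their receptors and the effectors of the pathway were followed in osteoblasts marked by a Col2.3GFP transgene and in the cells they were compared with. Members were chosen by symbol: every *Wnt* and *Fzd* gene, *Lrp4*, *Lrp5*, *Lrp6*, *Lgr4*, *Lgr5*, *Lgr6*, the R-spondins, *Ctnnb1*, *Tcf7*, *Lef1* and *Axin2*. The rule found 43 genes among the 20202 listed in any of the 3 count tables: 19 ligands, 10 frizzleds, 3 Lrp coreceptors, 3 Lgr receptors, 4 R-spondins and 4 effectors. All 43 had a row among the 19781 genes of the table of ESC-derived osteoblasts, 39 among the 17173 genes of the bone table and 36 among the 16966 genes of the bone chip table. *Wnt3*, *Wnt3a*, *Wnt7a* and *Wnt8a* had no row in the bone and bone chip tables, and *Wnt2*, *Wnt9b* and *Rspo4* had none in the bone chip table. Both of these tables list a gene only from a sum of 2 counts upward.

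Every population came from Col2.3GFP material, in which a fragment of the *Col1a1* promoter drives GFP in maturing osteoblasts. GFP+ (hi) cells, labelled as osteoblasts, and GFP- cells, labelled as a mixed negative population, were sorted fresh from mouse long bone. The same pair was sorted from bone chip cultures given osteogenic differentiation. GFP+ osteoblasts differentiated from embryonic stem cells (ESC-OB) were set against ESC. The treatment label of the ESC libraries also reads osteogenic differentiation. Their titles and the methods of the study describe the starting cells, and they are read here as undifferentiated. There were 3 libraries for each of the 6 populations, 18 in all. Age, strain and sex of the mice are not stated in the labels, nor is it stated whether replicates came from separate animals or cultures, so p-values measure only the spread between these libraries.

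Wnt proteins are secreted lipid-modified ligands that bind a frizzled receptor together with *Lrp5* or *Lrp6*. This halts the destruction of β-catenin, the product of *Ctnnb1*, which then acts in the nucleus with the DNA-binding factors *Tcf7* and *Lef1* and switches on targets such as *Axin2*. R-spondins bind Lgr receptors and keep frizzleds at the cell surface, whereas *Lrp4* presents the bone-derived Wnt inhibitor sclerostin. In bone the pathway is known for its control of bone mass, and loss or gain of *Lrp5* function changes human bone density.

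Total counts ran from 4920977 to 43874837 per library. Values below are read counts relative to the library total (CPM) scaled by TMM within each source, so that levels of 1 gene are compared within a source and are not shares of a library. A gene was called higher or lower at an adjusted p under 0.05 in edgeR's quasi-likelihood test over all genes that passed a filter on low counts. The labelled osteoblasts held osteoblast markers: the summed level of 11 such genes was 846648 to 896265 CPM in bone GFP+ (hi) cells against 11971 to 23564 CPM in GFP- cells, and none of the 11 was at 0. Bone GFP- cells held 101732 to 213066 CPM of 10 chondrocyte genes against 10779 to 13763 CPM in GFP+ (hi) cells, with 9 of the 10 lower in GFP+ (hi) cells, none at 0 and *Col2a1* the highest. Chromosome Y counts were 625 to 1167 in the bone GFP- libraries and 913 in GFP+ (hi) replicate 2. In GFP+ (hi) replicates 1 and 3 they were 6 and 9, so GFP and sex cannot be fully told apart in bone. Every bone chip library held 0 or 1 such counts, so sex cannot be fully told apart from source either. In ESC-OB the 8 epithelial genes summed to 3479 to 5159 CPM against 431 to 567 CPM in ESC, and the osteoblast genes to 5833 to 16402 against 1068 to 1191 CPM, with *Bglap* and *Ibsp* at 0 in ESC. Of the 11 osteoblast genes 8 were tested there, and 6 were higher, 1 was lower and 1 was not called in ESC-OB. The 10 pluripotency genes summed to 389.7 to 436 CPM in bone GFP+ (hi) cells and 317 to 525 CPM in GFP- cells, *Klf2* being the highest in both, and 6 of the 7 tested were higher in GFP+ (hi) cells. Of the 10, *Esrrb*, *Zfp42*, *Fgf4* and *Gdf3* were at 0 in GFP- cells and none was at 0 in GFP+ (hi) cells, and their part in the results for bone was not tested.

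In bone, 28 members could be tested; 10 were higher in GFP+ (hi) cells, 9 were lower and 9 were not called. Of all 12559 genes tested there 41.7% were called, 19.5% higher and 22.1% lower, against 35.7% and 32.1% of the members tested. In bone chips 13 of 31 members were higher, 10 were lower and 8 were not called, or 41.9% and 32.3%. The background there was 43.5% of 12841 genes, 20.4% higher and 23.1% lower. In ESC-OB 23 of 36 members were higher, 7 were lower and 6 were not called, or 63.9% and 19.4%. The background was 77.7% of 15417 genes, 43% higher and 34.7% lower. The median log2 fold change of the members tested was -0.40 in bone, where that of all genes was -0.0013. It was 0.13 against -0.043 in bone chips and 2.67 against 0.22 in ESC-OB. These shares and medians describe the members that passed the filter, and a gene that passed it only through its higher group had to differ. Below the filter were 11 listed members in bone, with group means of at most 0.682 CPM, 5 in bone chips, with at most 0.787 CPM, and 7 in ESC-OB, with at most 0.352 CPM. *Wnt1*, *Wnt3a*, *Wnt8a*, *Wnt8b* and *Wnt9b* passed it in no source, and *Wnt3* was tested in ESC-OB alone without a call, which leaves 37 members called at least once. The share of all genes called at least once was not counted, so this number has no background. The counts held within 1.5 times under each change of filter, scaling or tool that was tried. With a required change of 1 on the log2 scale they fell to 5 higher members in bone and to 8 higher and 5 lower members in bone chips.

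**Figure D1:**
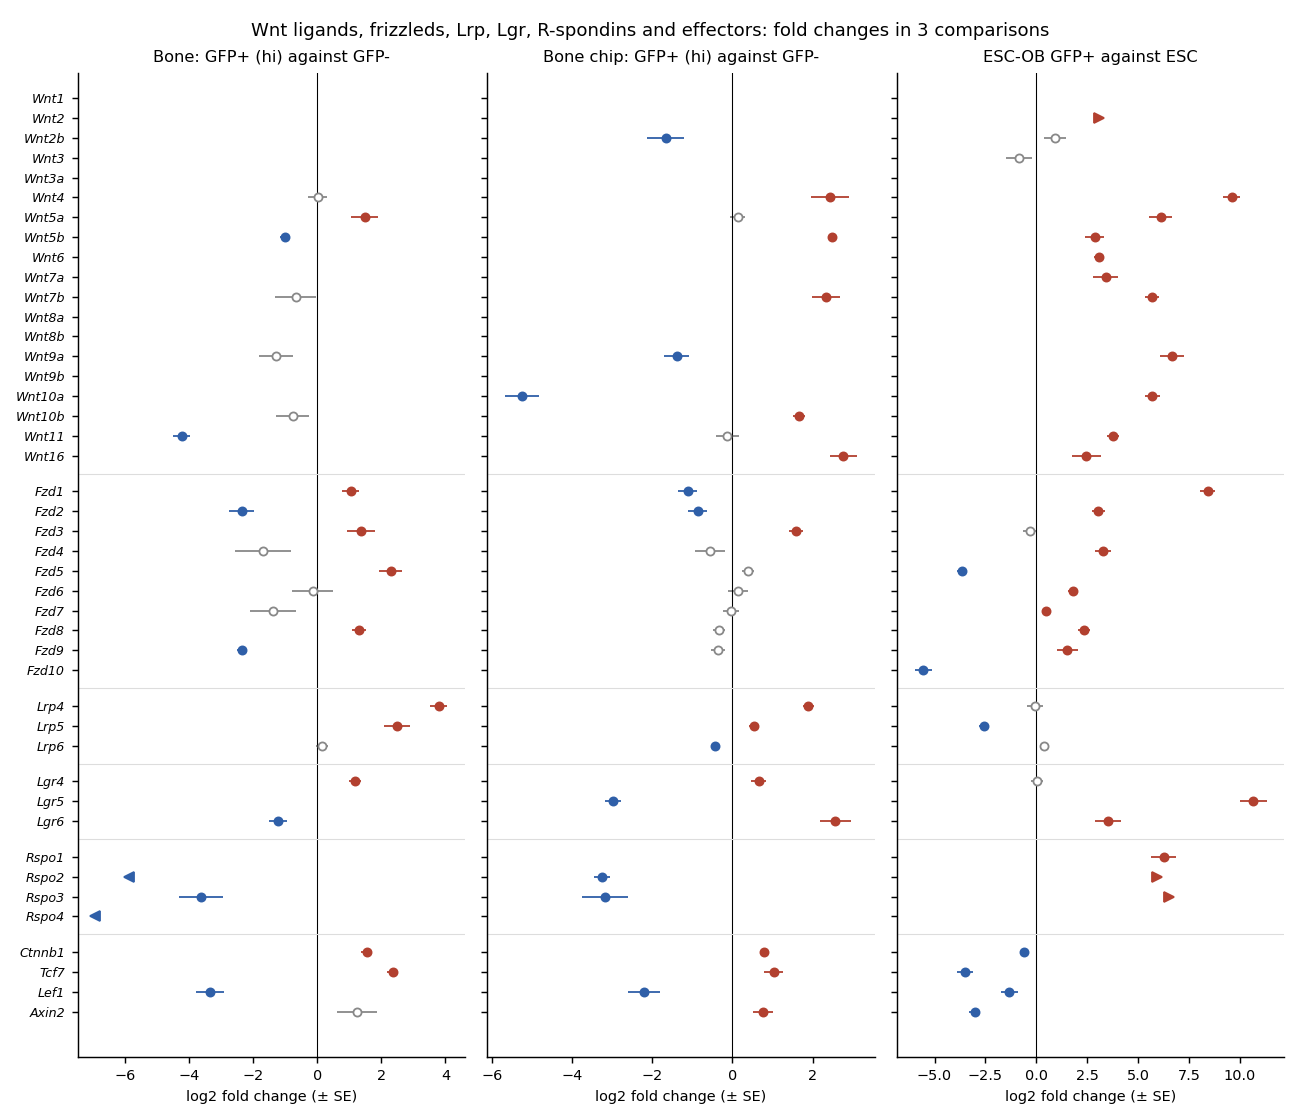
Log2 fold change of each member tested (points, with standard error bars) for the bone, bone chip and ESC-OB comparisons, grouped from top to bottom as ligands, frizzleds, Lrp coreceptors, Lgr receptors, R-spondins and effectors. Red points were called higher in GFP+ cells, blue points lower and open grey points were not called; triangles are bounds for genes with 0 counts in a group. The R-spondins tested lie left of 0 in bone and bone chips and right of it in ESC-OB, and *Lef1* lies left of 0 in all 3.

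Promoter windows of the 4 members below are shown because they hold a DNA core of the Tcf and Lef factors, the DNA-binding effectors among the members, and because the levels of *Wnt5b*, *Fzd1*, *Wnt11* and *Lef1* between GFP+ (hi) and GFP- cells are taken up again below. Each window is the 250 bases before a RefSeq start site, taken from GRCm38.p6, and each matched NCBIM37 (mm9), the build of the counts, at 1 place of its chromosome. Capitals mark every CTTTGA or CTTTGT and, for the opposite strand, TCAAAG or ACAAAG. The *Fzd1* window, chr5:4758217-4758466 on the minus strand, lies before the gene (chr5:4753842-4758216, minus strand) and in no other gene. The *Wnt11* window, chr7:105983372-105983621 on the plus strand, also lies outside any gene, before *Wnt11* (chr7:105983622-106003705, plus strand). The *Wnt5b* window, chr6:119399405-119399654 on the minus strand, and the *Lef1* window, chr3:130858962-130859211 on the plus strand, lie in introns of *Wnt5b* (chr6:119382549-119494336, minus strand) and *Lef1* (chr3:130813389-130927274, plus strand), before inner start sites.
Fzd1: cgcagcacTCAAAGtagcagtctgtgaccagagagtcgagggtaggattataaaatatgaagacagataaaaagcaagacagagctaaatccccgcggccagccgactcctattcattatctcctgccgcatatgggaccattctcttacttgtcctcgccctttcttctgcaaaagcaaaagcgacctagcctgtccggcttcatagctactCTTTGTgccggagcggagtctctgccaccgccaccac
Wnt5b: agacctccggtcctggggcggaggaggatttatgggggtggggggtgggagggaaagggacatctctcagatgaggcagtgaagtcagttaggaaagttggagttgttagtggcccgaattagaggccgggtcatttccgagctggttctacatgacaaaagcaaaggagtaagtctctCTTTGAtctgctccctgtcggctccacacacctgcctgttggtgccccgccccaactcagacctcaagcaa
Wnt11: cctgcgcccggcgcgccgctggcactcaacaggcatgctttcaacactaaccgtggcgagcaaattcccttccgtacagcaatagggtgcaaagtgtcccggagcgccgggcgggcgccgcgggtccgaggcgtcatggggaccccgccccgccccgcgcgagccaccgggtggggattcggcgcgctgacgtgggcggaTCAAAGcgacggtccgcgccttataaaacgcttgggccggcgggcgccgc
Lef1: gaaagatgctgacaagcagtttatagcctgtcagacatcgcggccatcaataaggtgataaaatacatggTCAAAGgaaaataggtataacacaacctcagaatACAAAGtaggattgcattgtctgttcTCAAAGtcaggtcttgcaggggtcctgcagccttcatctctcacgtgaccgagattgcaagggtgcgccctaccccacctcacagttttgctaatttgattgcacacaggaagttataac
*Lef1* held 3 cores, which begin 120, 146 and 180 bases before the start site, *Fzd1* held 2 and *Wnt5b* and *Wnt11* held 1 each. Of the 43 members 29 had a promoter in the table, with 37 start sites in all, and 6 of these, or 16.2%, held a core within 250 bases. Of all 32851 promoters 27.6% did. The remaining windows with a core were those of *Fzd7* and *Wnt8b*. The windows of *Tcf7* and *Axin2* and the other windows of *Lef1* and *Wnt5b* held none. A core in a window is a description of its letters and was not linked to binding.

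Of the 7 ligands tested in bone, *Wnt5a* was higher in GFP+ (hi) cells and *Wnt11* and *Wnt5b* were lower. These were 14.3% and 28.6%, beside 19.5% and 22.1% of all genes. *Wnt11*, a ligand known for signalling without β-catenin, was at 101, 93.6 and 91.7 CPM in GFP- cells and 3.75, 4.3 and 7.32 CPM in GFP+ (hi) cells. Every GFP+ (hi) library lay more than 10-fold below every GFP- library (log2 fold change -4.22, SE 0.26, adjusted p = 3.0e-06). *Wnt5b*, also known for signalling without β-catenin, was at 107, 91.1 and 87.7 CPM in GFP- cells and 44.6, 44.4 and 52.4 CPM in GFP+ (hi) cells, groups that again did not overlap (log2 fold change -1.01, SE 0.15, adjusted p = 6.9e-04). *Wnt5a*, its close relative, went the other way, with 7.26, 2.52 and 2.92 CPM in GFP- cells and 9.3, 11.1 and 15.1 CPM in GFP+ (hi) cells (log2 fold change 1.48, SE 0.42, adjusted p = 0.02). That call rested on GFP- replicates 2 and 3, without which the change was 1.23 (adjusted p = 0.067) and 1.30 (adjusted p = 0.069), and without GFP- replicate 1 it was 2.15 (adjusted p = 0.0037). *Wnt4*, with 56.9, 49 and 45.6 CPM in GFP- cells and 28.1, 52.7 and 72.4 CPM in GFP+ (hi) cells, overlapped between the groups and did not differ detectably (log2 fold change 0.015, SE 0.30, adjusted p = 0.97). The same held for *Wnt7b* (-0.67 ± 0.64, SE) and *Wnt10b* (-0.77 ± 0.51). *Wnt9a* was at 4.18, 3.32 and 1.75 CPM in GFP- cells and 0.962, 1.3 and 1.54 CPM in GFP+ (hi) cells, apart in these libraries but short of the threshold (log2 fold change -1.29, SE 0.52, adjusted p = 0.074). Without GFP+ (hi) replicate 3 its change was -1.46 (adjusted p = 0.047). Chondrocyte genes were far higher in the same GFP- cells in which *Wnt11*, *Wnt5b*, *Fzd2*, *Fzd9*, *Lgr6*, 3 R-spondins and *Lef1* were higher, and their part in these differences was not tested. In sorted populations such as these, fewer cells of a type and less RNA per cell cannot be told apart.

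In bone chips the ligands split otherwise: 5 of 10 tested were higher in GFP+ (hi) cells and 3 were lower. These were 50% and 30%, beside 20.4% and 23.1% of all genes. *Wnt5b* was at 8.54, 7.24 and 7.14 CPM in GFP- cells and 41, 43 and 43.4 CPM in GFP+ (hi) cells, a rise with little spread, where bone had shown a fall (log2 fold change 2.48, SE 0.10, adjusted p = 2.0e-05). *Wnt10b*, a ligand that favours bone over fat formation, was at 4.01, 3.68 and 4.59 CPM in GFP- cells and 14.3, 11.9 and 12.9 CPM in GFP+ (hi) cells (log2 fold change 1.66, SE 0.15, adjusted p = 1.9e-04). *Wnt4* rose from 2, 1.52 and 2.23 to 9.56, 4.65 and 17.3 CPM, the third GFP+ (hi) library being the highest (log2 fold change 2.44, SE 0.48, adjusted p = 0.006). *Wnt16*, a ligand tied to cortical bone thickness, rose from 1.05, 0.762 and 1.21 to 6.72, 4.57 and 9.57 CPM (log2 fold change 2.77, SE 0.34, adjusted p = 8.0e-04). For *Wnt7b* the libraries were at 0.697, 0.635 and 0.417 CPM in GFP- cells and 3.88, 2.08 and 2.79 CPM in GFP+ (hi) cells (log2 fold change 2.34, SE 0.35, adjusted p = 0.0018). All 5, named here because they were called, lay apart between the groups. The share of all genes that did so was not counted.

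*Wnt10a* was the ligand that fell most in bone chips. It stood at 7.93, 7.43 and 8.35 CPM in GFP- cells and 0.0947, 0.415 and 0.0797 CPM in GFP+ (hi) cells (log2 fold change -5.25, SE 0.42, adjusted p = 1.4e-04). The GFP+ (hi) libraries held 1, 5 and 1 counts, so *Wnt10a* passed the filter through GFP- cells, which fixed its direction. Without GFP+ (hi) replicate 2 the change was -6.37 (adjusted p = 1.8e-04). *Wnt9a* fell from 1.83, 2.35 and 1.48 to 0.568, 0.913 and 0.638 CPM (log2 fold change -1.39, SE 0.31, adjusted p = 0.011). Its call was lost in the fit of all 18 libraries, -1.41 (adjusted p = 0.051). *Wnt2b* was at 3.75, 2.22 and 6.59 CPM in GFP- cells and 1.89, 1.16 and 0.957 CPM in GFP+ (hi) cells (log2 fold change -1.66, SE 0.47, adjusted p = 0.025). Its call was lost without GFP- replicate 1, -1.73 (adjusted p = 0.055), or 3, -1.14 (adjusted p = 0.071), and without GFP+ (hi) replicate 2, -1.57 (adjusted p = 0.082), or 3, -1.47 (adjusted p = 0.084). In the fit of all 18 libraries it was at -1.66 (adjusted p = 0.053). *Wnt5a* and *Wnt11* were the ligands tested without a call. *Wnt5a* was at 37.8, 26.7 and 28.2 CPM in GFP- cells and 42.1, 28.6 and 30.8 CPM in GFP+ (hi) cells (adjusted p = 0.61) and *Wnt11* at 3.75, 2.54 and 3.62 and 3.98, 2.08 and 3.03 CPM (adjusted p = 0.75). The 8 stromal marker genes summed to 1842 to 3023 CPM in these GFP- cells and 459.9 to 473 CPM in GFP+ (hi) cells, with 7 of the 8 lower in the latter and none at 0 in either group. The 6 of 9 myeloid genes with a row there summed to 3349 CPM in GFP- replicate 2 and to 295 and 383 CPM in the other GFP- libraries, against 427 to 684 CPM in GFP+ (hi) cells, where *S100a8* was at 0. *Elane*, *Ngp* and *S100a9* had no row. *Rspo2*, *Rspo3*, *Lgr5* and *Lef1* were higher in the same GFP- cells as *Wnt10a*, and the part of stromal or myeloid cells in these differences was not tested.

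ESC-OB cells had more of 11 of the 13 ligands tested than ESC, or 84.6%, and none was lower. Of all genes 43% were higher and 34.7% lower. *Wnt2*, with 0 counts in ESC, passed the filter through ESC-OB alone. *Wnt4*, *Wnt5a*, *Wnt7a*, *Wnt9a*, *Wnt10a* and *Wnt16* were also too low in ESC to pass it there. For these ligands the filter largely set the direction, so the 84.6% was not free of it. *Wnt7b*, a ligand of many epithelia, was at 7.19, 2.89 and 2.51 CPM in ESC and 237, 166 and 212 CPM in ESC-OB GFP+ cells (log2 fold change 5.68, SE 0.35, adjusted p = 1.6e-07). *Wnt4*, best known from kidney and gonad, was at 0, 0.277 and 0.209 CPM in ESC and 221, 131 and 148 CPM in ESC-OB GFP+ cells (log2 fold change 9.59, SE 0.42, adjusted p = 1.8e-08). ESC held 6 counts of *Wnt4*, and without ESC replicate 2 its change was 10.62 (adjusted p = 5.5e-06). *Wnt6*, a ligand of developing epithelia, rose from 3.5, 4.72 and 4.4 to 40.1, 36.9 and 30.6 CPM (log2 fold change 3.07, SE 0.23, adjusted p = 6.5e-07). *Wnt10a*, its neighbour on chromosome 1 with 6196 bases between both genes, rose from 0.369, 0.666 and 1.26 to 47.8, 31.8 and 33.2 CPM (log2 fold change 5.69, SE 0.36, adjusted p = 2.0e-07). *Wnt11* rose from 3.32, 2.22 and 2.3 to 24.5, 43.1 and 36.9 CPM (log2 fold change 3.77, SE 0.31, adjusted p = 1.1e-06). In each of these genes the lowest ESC-OB library lay well above the highest ESC library.

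Further ligands rose in ESC-OB from low levels in ESC. *Wnt9a* was at 0.922, 0.111 and 0 CPM in ESC and 24, 33.2 and 25.2 CPM in ESC-OB GFP+ cells (log2 fold change 6.67, SE 0.57, adjusted p = 1.7e-06). Its change was 8.20 (adjusted p = 6.0e-07) without ESC replicate 1 and 5.79 (adjusted p = 1.0e-04) without ESC replicate 2. *Wnt5a* was at 0, 0.444 and 0.419 CPM in ESC and 15.1, 37.2 and 19.6 CPM in ESC-OB GFP+ cells (log2 fold change 6.10, SE 0.58, adjusted p = 3.4e-06), or 6.86 (adjusted p = 1.9e-04) without ESC replicate 2. *Wnt5b* was at 1.29, 1.33 and 1.89 CPM in ESC and 5.6, 16 and 10.7 CPM in ESC-OB GFP+ cells (log2 fold change 2.87, SE 0.46, adjusted p = 1.8e-04). For *Wnt5a* and *Wnt5b* the second ESC-OB library was the highest. *Wnt7a* was at 0.184, 0.166 and 0.209 CPM in ESC and 2.56, 2.15 and 1.21 CPM in ESC-OB GFP+ cells (log2 fold change 3.41, SE 0.63, adjusted p = 4.8e-04). *Wnt16* was at 0.369, 0.444 and 0 CPM in ESC and 1.17, 3.01 and 1.33 CPM in ESC-OB GFP+ cells (log2 fold change 2.46, SE 0.71, adjusted p = 0.0086), with 3.18 (adjusted p = 0.031) without ESC replicate 2. *Wnt2* had 0 counts in ESC and 68 in ESC-OB, at 0.449, 1.46 and 0.925 CPM, at least 8.45-fold higher when ESC is given 3 counts over its 3 libraries (adjusted p = 0.0019). *Wnt2b* (0.91 ± 0.54) and *Wnt3* (-0.84 ± 0.64) were not called. *Wnt4*, *Wnt6*, *Wnt7b* and *Wnt10a* stood beside epithelial markers, of which 7 of 8 were higher in ESC-OB, led by *Krt8*, and the 8 stromal genes summed to 1239 to 1503 CPM there against 18.6 to 31.9 CPM in ESC. The part of such cells in the ligand levels was not tested.

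**Figure D2:**
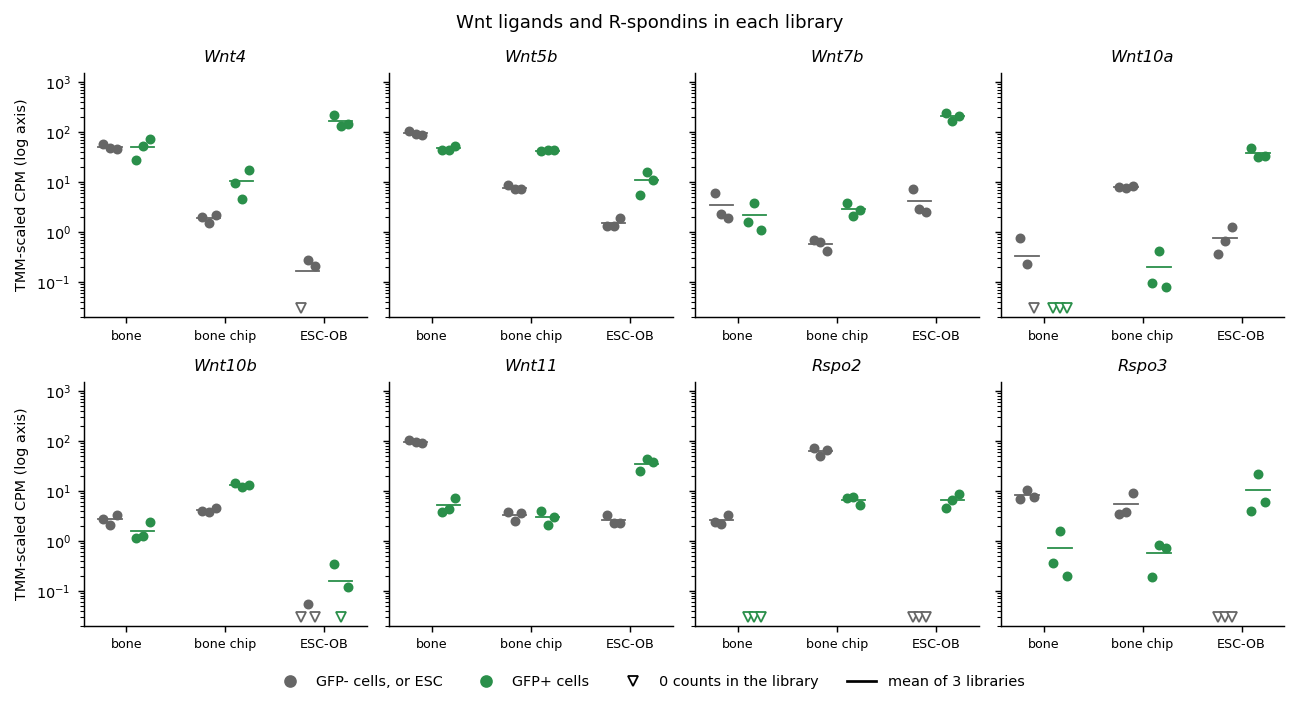
TMM-scaled CPM on a log axis of 6 ligands and 2 R-spondins in each library, with the reference population in grey, the GFP+ population in green, a line at the mean and open triangles for libraries with 0 counts. *Wnt5b* GFP+ libraries lie below the GFP- libraries in bone and above them in bone chips, and *Rspo2* is at 0 in bone GFP+ (hi) cells and in ESC.

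Of the 4 R-spondins, 3 were tested in bone and 2 in bone chips, all lower in GFP+ (hi) cells. In ESC-OB 3 were tested, all higher than in ESC. Of all genes 22.1% were lower in bone, 23.1% were lower in bone chips and 43% were higher in ESC-OB. *Rspo2*, *Rspo3* and *Rspo4* in bone, *Rspo3* in bone chips and all 3 tested in ESC-OB passed the filter through their higher group, which fixed their direction. Only *Rspo2* in bone chips was high enough in both groups. *Rspo1* in both bone sources and *Rspo4* in ESC-OB were below the filter. In bone *Rspo3* was at 6.93, 10.3 and 7.49 CPM in GFP- cells and 0.353, 1.57 and 0.193 CPM in GFP+ (hi) cells, groups that did not overlap (log2 fold change -3.63, SE 0.70, adjusted p = 0.0026). Replicate 2 of the GFP+ (hi) cells was the highest of its group, and without it the change was -4.84 (adjusted p = 2.0e-04). *Rspo4* had 144 counts over the GFP- libraries, at 5.5, 4.69 and 6.2 CPM, and 0 counts in GFP+ (hi) cells, at least 121-fold lower at 3 counts over the group. *Rspo2* had 69 counts in GFP- cells, at 2.42, 2.17 and 3.28 CPM, and 0 in GFP+ (hi) cells, at least 58.1-fold lower. Both were called (adjusted p = 1.1e-04 and 4.6e-04).

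In bone chips *Rspo2* was the leading R-spondin. It fell from 71.7, 50.1 and 65.9 CPM in GFP- cells to 7.01, 7.55 and 5.1 CPM in GFP+ (hi) cells (log2 fold change -3.26, SE 0.20, adjusted p = 5.5e-05). *Rspo3* fell from 3.4, 3.81 and 8.86 to 0.189, 0.83 and 0.718 CPM (log2 fold change -3.18, SE 0.57, adjusted p = 0.0043). GFP- replicate 3 was the highest of its group, and the change without that library was -2.57 (adjusted p = 0.007). In ESC-OB *Rspo1* reached 26.3, 47.2 and 13.7 CPM from 0.184, 0.499 and 0.209 CPM in ESC (log2 fold change 6.25, SE 0.60, adjusted p = 3.7e-06), or 7.15 (adjusted p = 1.9e-04) without ESC replicate 2. *Rspo3* and *Rspo2* had 0 counts in ESC and 735 and 486 counts in ESC-OB, at least 91.3-fold and 60.4-fold higher. Their ESC-OB libraries were at 3.94, 21.5 and 6.03 CPM and at 4.46, 6.48 and 8.65 CPM. *Rspo1* was scarce in bone, with 1 count in GFP- cells and 40 in GFP+ (hi) cells, a ratio of 15.8 with a 95% exact interval of 2.69 to 641 that covers counting error only, and it was not tested.

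The Lgr receptors, which R-spondins bind, did not follow 1 pattern. *Lgr4* was higher in GFP+ (hi) cells of bone, with 31.6, 26.9 and 21.3 CPM in GFP- cells and 65.6, 62.6 and 53.1 CPM in GFP+ (hi) cells (log2 fold change 1.18, SE 0.19, adjusted p = 8.7e-04). The same gene was higher in those of bone chips, with 52.2, 36.5 and 60.4 CPM in GFP- cells and 78.6, 73.6 and 82.8 CPM in GFP+ (hi) cells (log2 fold change 0.66, SE 0.18, adjusted p = 0.024). The bone chip call was lost without GFP- replicate 1, 0.70 (adjusted p = 0.064), and without GFP+ (hi) replicate 1, 0.65 (adjusted p = 0.072), or 3, 0.62 (adjusted p = 0.069), as it was in the fit of all 18 libraries, 0.65 (adjusted p = 0.081). *Lgr6* was lower in bone GFP+ (hi) cells, at 14.5, 12.2 and 11.4 CPM against 24.2, 20.6 and 44.6 CPM (log2 fold change -1.23, SE 0.29, adjusted p = 0.0077). In bone chips it was higher, at 56.4, 78.4 and 56.8 CPM against 8.45, 5.9 and 17.5 CPM (log2 fold change 2.57, SE 0.39, adjusted p = 0.0021), with 3.18 (adjusted p = 4.0e-04) without GFP- replicate 3. The groups lay apart in both sources, in opposite order. *Lgr5*, a marker of many stem cells, was below the filter in bone and fell in bone chips from 8.62, 9.46 and 7.1 to 1.14, 0.996 and 1.04 CPM (log2 fold change -2.98, SE 0.19, adjusted p = 6.1e-05).

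In ESC-OB *Lgr5* was at 39.5, 65.3 and 102 CPM, and ESC had 1 count in all (adjusted p = 1.5e-07). *Lgr5* thus passed the filter there through ESC-OB alone, which fixed its direction. The ratio of 1900 has a 95% exact interval of 341 to 75076, which covers counting error only. *Lgr6* rose from 0.369, 0.61 and 0.628 to 2.31, 10.3 and 6.72 CPM (log2 fold change 3.52, SE 0.63, adjusted p = 4.2e-04). *Lgr4*, at 38.2, 97.2 and 95.7 CPM in ESC and 82.5, 65.4 and 86.1 CPM in ESC-OB GFP+ cells, overlapped (log2 fold change 0.012, SE 0.30, adjusted p = 0.97).

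Among the frizzleds, the receptors that bind Wnt, 4 of 9 tested were higher and 2 were lower in bone GFP+ (hi) cells. These were 44.4% and 22.2%, beside 19.5% and 22.1% of all genes. *Fzd9* was at 140.2, 116 and 143 CPM in GFP- cells and 26.1, 27.5 and 24.2 CPM in GFP+ (hi) cells, about 5-fold lower with groups far apart (log2 fold change -2.36, SE 0.16, adjusted p = 4.2e-06). *Fzd2* was at 11.7, 7.66 and 11.6 CPM in GFP- cells and 1.38, 1.71 and 2.94 CPM in GFP+ (hi) cells (log2 fold change -2.36, SE 0.39, adjusted p = 0.0012). *Fzd8* went up, with 28.4, 26.5 and 31.1 CPM in GFP- cells and 77.6, 84.5 and 49.7 CPM in GFP+ (hi) cells (log2 fold change 1.30, SE 0.21, adjusted p = 0.0011). *Fzd5* did likewise, with 1.76, 1.83 and 1.17 CPM in GFP- cells and 7.89, 8.61 and 6.98 CPM in GFP+ (hi) cells (log2 fold change 2.29, SE 0.36, adjusted p = 8.8e-04). *Fzd1* rose from 15.2, 9.38 and 19.4 to 25.6, 36.1 and 29.8 CPM (log2 fold change 1.06, SE 0.26, adjusted p = 0.011). *Fzd3*, known for axon guidance and planar polarity, was at 1.54, 2.86 and 1.4 CPM in GFP- cells and 5.58, 4.71 and 4.67 CPM in GFP+ (hi) cells (log2 fold change 1.36, SE 0.43, adjusted p = 0.029). Its call was lost without GFP- replicate 1, 1.25 (adjusted p = 0.088), or 3, 1.21 (adjusted p = 0.078), and without GFP+ (hi) replicate 1, 1.28 (adjusted p = 0.091), or 2, 1.41 (adjusted p = 0.06). *Fzd4* and *Fzd7* were uneven among the GFP+ (hi) libraries, at 1.41, 2.6 and 0.0482 CPM and 5.51, 4.71 and 0.385 CPM, and were not called (-1.70 ± 0.87 and -1.37 ± 0.72, SE). *Fzd6* was not called either (-0.14 ± 0.64), and *Fzd10* was below the filter.

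In bone chips 1 of 9 frizzleds was higher and 2 were lower, or 11.1% and 22.2%, beside 20.4% and 23.1% of all genes. *Fzd3* rose from 1.74, 2.03 and 2.18 to 6.82, 5.73 and 5.58 CPM (log2 fold change 1.59, SE 0.18, adjusted p = 6.0e-04). *Fzd1* fell from 172, 118 and 139 to 61.9, 48.9 and 86.2 CPM (log2 fold change -1.12, SE 0.23, adjusted p = 0.0075). *Fzd2* fell from 48.5, 33.3 and 28.3 to 24.8, 17.3 and 18.2 CPM (log2 fold change -0.87, SE 0.23, adjusted p = 0.022). The call of *Fzd2* was lost without GFP+ (hi) replicate 2, -0.77 (adjusted p = 0.076), or 3, -0.80 (adjusted p = 0.072). *Fzd4*, *Fzd5*, *Fzd6*, *Fzd7*, *Fzd8* and *Fzd9* were not called, with log2 fold changes between -0.55 and 0.39. *Fzd5* had the highest of these (0.39 ± 0.16, SE, adjusted p = 0.087). It was called once the replicate numbers entered the fit as a block, 0.40 (adjusted p = 0.013). These numbers were taken to pair the bone chip libraries, which the labels do not state.

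ESC-OB cells had more of 7 frizzleds than ESC and less of 2, or 70% and 20%, beside 43% and 34.7% of all genes. *Fzd1*, almost absent from ESC at 0.553, 0.555 and 0 CPM, reached 122, 166 and 179 CPM (log2 fold change 8.41, SE 0.37, adjusted p = 2.1e-08), or 9.01 (adjusted p = 6.1e-06) without ESC replicate 2. In ESC *Fzd1* was too low to pass the filter. *Fzd2* rose from 3.32, 7.49 and 5.03 to 30.8, 54.5 and 53.4 CPM (log2 fold change 3.05, SE 0.33, adjusted p = 8.4e-06). *Fzd4*, also a receptor of the retinal ligand norrin, rose from 1.66, 1.39 and 0.419 to 10.6, 10.7 and 14.2 CPM (log2 fold change 3.27, SE 0.41, adjusted p = 3.1e-05). *Fzd8* rose from 5.9, 4.16 and 2.72 to 16.8, 25.5 and 22.7 CPM (log2 fold change 2.34, SE 0.31, adjusted p = 4.7e-05). *Fzd6*, a frizzled of planar polarity in skin, rose from 9.03, 7.16 and 5.03 to 24.9, 24.7 and 24.4 CPM (log2 fold change 1.80, SE 0.25, adjusted p = 5.9e-05). These 5, each of them called, did not overlap between ESC and ESC-OB, and the share of all genes that did not was not counted.

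*Fzd10* and *Fzd5* were the frizzleds that fell in ESC-OB. *Fzd10* was at 42.6, 39.4 and 36.9 CPM in ESC and 1.07, 0.228 and 1.17 CPM in ESC-OB GFP+ cells (log2 fold change -5.55, SE 0.42, adjusted p = 6.4e-07). *Fzd5* fell too, from 57.7, 90.1 and 94.9 to 6.39, 6.98 and 5.99 CPM (log2 fold change -3.65, SE 0.23, adjusted p = 1.6e-07). *Fzd7*, a frizzled of pluripotent cells, was at 32.1, 49.9 and 42.3 CPM in ESC and 52.9, 57.5 and 62.3 CPM in ESC-OB GFP+ cells (log2 fold change 0.47, SE 0.19, adjusted p = 0.04), where the median shift of all genes was 0.22. Its call was lost without ESC replicate 1, 0.31 (adjusted p = 0.14), or 3, 0.47 (adjusted p = 0.095), and in the fit of all 18 libraries, 0.47 (adjusted p = 0.34). *Fzd9*, at 3.13, 1.39 and 1.89 CPM in ESC and 3.04, 9.31 and 5.27 CPM in ESC-OB GFP+ cells, overlapped although called (log2 fold change 1.51, SE 0.51, adjusted p = 0.018). Without ESC replicate 2, ESC replicate 3 or ESC-OB replicate 2 it was at 1.20 (adjusted p = 0.10), 1.46 (adjusted p = 0.054) and 1.09 (adjusted p = 0.076). *Fzd3* was not called (-0.30 ± 0.33).

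Within the frizzled family the leading receptor differed by population, on a scale of CPM per kb of exon that allows genes to be compared. In bone GFP- cells *Fzd9* made up 74.4 to 75.1% of the summed frizzled level and *Fzd8* 10.4 to 11.8%. In bone GFP+ (hi) cells *Fzd8* led with 40.4 to 51.1%, followed by *Fzd9* with 23.8 to 28.7% and *Fzd1* with 12.9 to 18.5%. Bone chip cells carried mainly *Fzd1*, with 40.9 to 43.8% in GFP- and 21.6 to 34.7% in GFP+ (hi) cells, next to *Fzd5* with 13.5 to 16.1% and 24.9 to 27.7%. The shares of *Fzd1* and *Fzd5* overlapped in the GFP+ (hi) libraries, so their order there is not settled. ESC carried *Fzd10* (27.7 to 33.8%), *Fzd5* (21.6 to 34.2%) and *Fzd7* (17.3 to 23.7%), and ESC-OB cells *Fzd1* (42.4 to 44.7%).

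The same scale placed *Wnt5b* at the head of the ligands in the GFP+ (hi) cells of both bone sources, with 46.3 to 62% of the summed ligand level in bone and 47 to 56.8% in bone chips. The ligand next to it was *Wnt4* in bone, with 24.5 to 40.1%, and *Wnt10b* in bone chips, with 16.4 to 18.4%. Bone GFP- cells carried *Wnt5b* (45.9 to 46.2%) and *Wnt11* (31.7 to 34.7%), and bone chip GFP- cells *Wnt5a* (22.3 to 28.9%), *Wnt10a* (19.2 to 21.5%) and *Wnt5b* (16.8 to 19.7%). In ESC-OB cells *Wnt7b* (27.8 to 35%) and *Wnt4* (23.2 to 32%) led with overlapping shares, while *Wnt5b* was at 1.29 to 4.51%. The summed ligand level was 72.8 to 88.1 CPM per kb in bone GFP- cells and 27.4 to 43.1 in GFP+ (hi) cells. It was 14 to 16.7 and 28.8 to 33.7 in the respective bone chip cells, and 5.18 to 6.08 in ESC against 135 to 165 in ESC-OB. The order of GFP+ and GFP- cells was thus opposite in the 2 bone sources, without overlap in either.

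**Figure D3:**
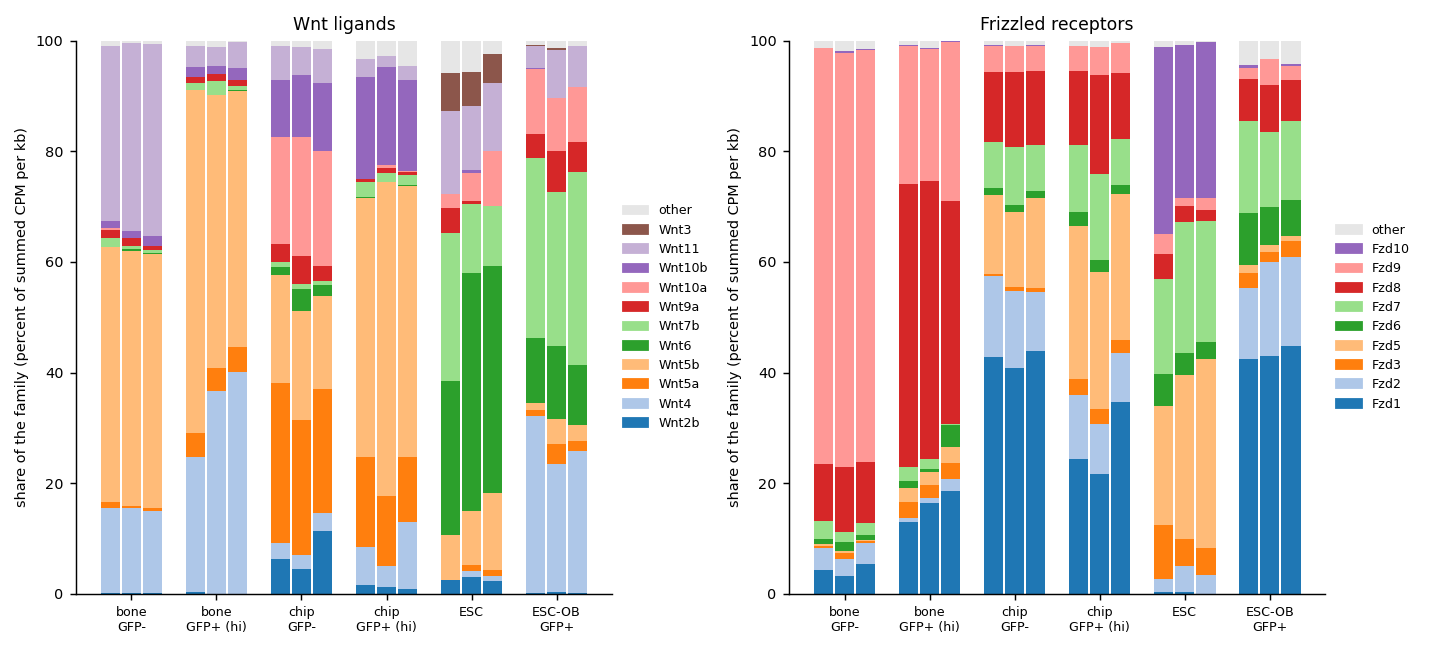
Share of each ligand (left) and each frizzled (right) in the summed CPM per kb of exon of its family, with 1 bar per library and members that never reach 5% pooled in grey. *Fzd9* fills 74.4 to 75.1% of the frizzled bars in bone GFP- cells, and *Wnt5b* is the largest ligand segment in both GFP+ (hi) populations.

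*Lrp4* had the highest log2 fold change of the members tested in bone, and *Lrp5* rose as well. *Lrp4* was at 1.87, 1.49 and 1.99 CPM in GFP- cells and 20.6, 24.9 and 28.7 CPM in GFP+ (hi) cells, a rise of more than 10-fold in every pair of libraries (log2 fold change 3.79, SE 0.27, adjusted p = 6.0e-06). *Lrp5* was at 1.87, 2.06 and 4.68 CPM in GFP- cells and 14.7, 21.2 and 12.7 CPM in GFP+ (hi) cells, also apart (log2 fold change 2.49, SE 0.40, adjusted p = 9.1e-04). *Lrp6*, the other signalling coreceptor, overlapped, with 18.8, 23.3 and 23.7 CPM in GFP- cells and 22.8, 28.4 and 22.4 CPM in GFP+ (hi) cells (log2 fold change 0.16, SE 0.18, adjusted p = 0.53). The 3 stood close together in bone GFP+ (hi) cells, at 2.33 ± 0.382 CPM per kb for *Lrp4*, 3.13 ± 0.858 for *Lrp5* and 2.5 ± 0.339 for *Lrp6* (SD, n = 3). Their order does not stand out from this spread. In bone GFP- cells *Lrp6* made up 68.9 to 81.5% of the coreceptor level.

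In bone chips *Lrp4* rose from 81.4, 68.9 and 59.2 to 266, 232 and 279 CPM (log2 fold change 1.89, SE 0.14, adjusted p = 1.0e-04). *Lrp5* rose less, from 86, 76.3 and 66 to 109, 114 and 106 CPM (log2 fold change 0.53, SE 0.11, adjusted p = 0.0085). In the fit of all 18 libraries the call of *Lrp5* was lost, 0.52 (adjusted p = 0.096). *Lrp6* fell from 136, 118 and 121 to 97.3, 90.8 and 89.3 CPM (log2 fold change -0.43, SE 0.091, adjusted p = 0.008). ESC-OB cells had another picture. *Lrp5* fell from 67.6, 65.4 and 54.9 CPM in ESC to 8.84, 9.4 and 12.9 CPM (log2 fold change -2.59, SE 0.20, adjusted p = 8.4e-07). *Lrp4* overlapped at 9.03, 8.71 and 6.28 CPM in ESC and 3.7, 11.2 and 8.21 CPM in ESC-OB GFP+ cells (log2 fold change -0.071, SE 0.40, adjusted p = 0.88). *Lrp6* was not called (0.36 ± 0.18, adjusted p = 0.083), but passed without ESC-OB replicate 1, 0.55 (adjusted p = 0.006), or 2, 0.42 (adjusted p = 0.04).

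Of the effectors, *Ctnnb1*, which encodes β-catenin, and *Tcf7* were higher and *Lef1* was lower in the GFP+ (hi) cells of both bone sources. In bone *Ctnnb1* was at 136, 95.2 and 127 CPM in GFP- cells and 392, 329.8 and 322 CPM in GFP+ (hi) cells (log2 fold change 1.54, SE 0.18, adjusted p = 1.2e-04). *Tcf7* was at 14.7, 12.5 and 11.7 CPM in GFP- cells and 70.3, 69.4 and 59.2 CPM in GFP+ (hi) cells (log2 fold change 2.35, SE 0.17, adjusted p = 7.5e-06). *Lef1*, which binds the same DNA core as *Tcf7*, was at 37.9, 40.7 and 32.5 CPM in GFP- cells and 5.71, 3.76 and 1.3 CPM in GFP+ (hi) cells (log2 fold change -3.34, SE 0.43, adjusted p = 2.5e-04). All 3, each of them called, lay apart between the groups, and the share of all genes that did so was not counted. In bone chips *Ctnnb1* rose from 432, 416 and 424 to 754, 661 and 798 CPM (log2 fold change 0.80, SE 0.10, adjusted p = 9.4e-04). *Tcf7* rose from 11.4, 9.27 and 11.3 to 24, 14.3 and 26.9 CPM (log2 fold change 1.03, SE 0.24, adjusted p = 0.012). *Lef1* was scarce there and fell from 1.83, 1.14 and 1.11 to 0.189, 0.249 and 0.399 CPM (log2 fold change -2.20, SE 0.41, adjusted p = 0.0048). It passed the filter in bone chips through GFP- cells, which fixed its direction there. In CPM per kb *Lef1* and *Tcf7* were alike in bone GFP- cells, at 4.28 ± 0.481 and 4.65 ± 0.568, and far apart in GFP+ (hi) cells, at 0.415 ± 0.255 and 23.8 ± 2.21 (SD, n = 3). In bone, *Lef1* and the summed chondrocyte genes were both higher in GFP- than in GFP+ (hi) cells. The part of the chondrocyte genes was not tested. In bone chips those genes summed to 5522 to 9574 CPM in GFP- and 9368 to 11146 CPM in GFP+ (hi) cells. They went both ways there, with 4 of 10 lower in GFP+ (hi) cells, 2 higher and 4 not called. Lymphoid cells also express *Lef1* and *Tcf7*. In bone the 5 of 9 T lymphoid genes with a row summed to at most 3.74 CPM, with *Cd3d* and *Cd3e* at 0 in GFP- cells. *Cd4*, *Cd8a*, *Cd5* and *Trat1* had no row. The 9 B lymphoid genes summed to 5.97 to 106 CPM in GFP- cells, replicate 1 being the highest, and to 1.06 to 2.6 CPM in GFP+ (hi) cells.

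*Axin2*, a direct target often read as a sign of signalling through β-catenin, was low in both bone sources. It was at 0.55, 0.458 and 1.4 CPM in GFP- cells and 2.53, 1.43 and 1.73 CPM in GFP+ (hi) cells in bone, apart in these libraries but not called (log2 fold change 1.25, SE 0.62, adjusted p = 0.14). It was called in the joint fit of all 18 libraries, 1.41 (adjusted p = 0.0091). In bone chips it was at 2.96, 1.84 and 3.2 CPM in GFP- cells and 5.11, 3.9 and 4.63 CPM in GFP+ (hi) cells and only just passed (log2 fold change 0.76, SE 0.25, adjusted p = 0.047). That call was lost when any library but GFP- replicate 3 was left out, with changes from 0.54 to 0.87 and adjusted p from 0.065 to 0.15. It was also lost under DESeq2, 0.78 (adjusted p = 0.072), with upper-quartile factors, 0.75 (adjusted p = 0.051), and with no filter, 0.75 (adjusted p = 0.059). Thinned to equal totals the change was 1.11 (adjusted p = 0.092), and in the joint fit that called *Axin2* in bone it was 0.76 (adjusted p = 0.11). The exons of *Axin2* share 3.8% of their length with a gene on the opposite strand, as do those of *Wnt11* (10.02%), *Ctnnb1* (4.71%), *Wnt5a* (4.58%) and *Wnt7b* (0.86%). The strand setting of the counts is not given in the sources used here, so reads of such partners cannot be told apart.

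In ESC-OB all 4 effectors were lower than in ESC. *Axin2* fell from 63.8, 39.8 and 39.6 to 4.97, 5.61 and 6.8 CPM (log2 fold change -3.04, SE 0.25, adjusted p = 1.3e-06). *Tcf7* fell from 80.4, 79.1 and 64.7 to 3.04, 11.7 and 5.23 CPM (log2 fold change -3.50, SE 0.41, adjusted p = 1.6e-05). *Ctnnb1* fell from 769.7, 804 and 674 to 495, 492 and 468 CPM (log2 fold change -0.63, SE 0.16, adjusted p = 0.0045). Without ESC-OB replicate 2, the highest of its group, *Tcf7* was at -4.11 (adjusted p = 6.7e-06). *Lef1*, at 4.06, 11.7 and 11.5 CPM in ESC and 3.39, 3.88 and 3.7 CPM in ESC-OB GFP+ cells, was apart by a small gap (log2 fold change -1.33, SE 0.40, adjusted p = 0.011). Its call was lost without ESC replicate 2, -1.09 (adjusted p = 0.074). *Lef1* was the only member called lower in all 3 comparisons among the 26 tested in each, or 3.85%, and no member was called higher in all 3. The share of all genes called alike in all 3 was not counted, so neither count is set against a background.

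**Figure D4:**
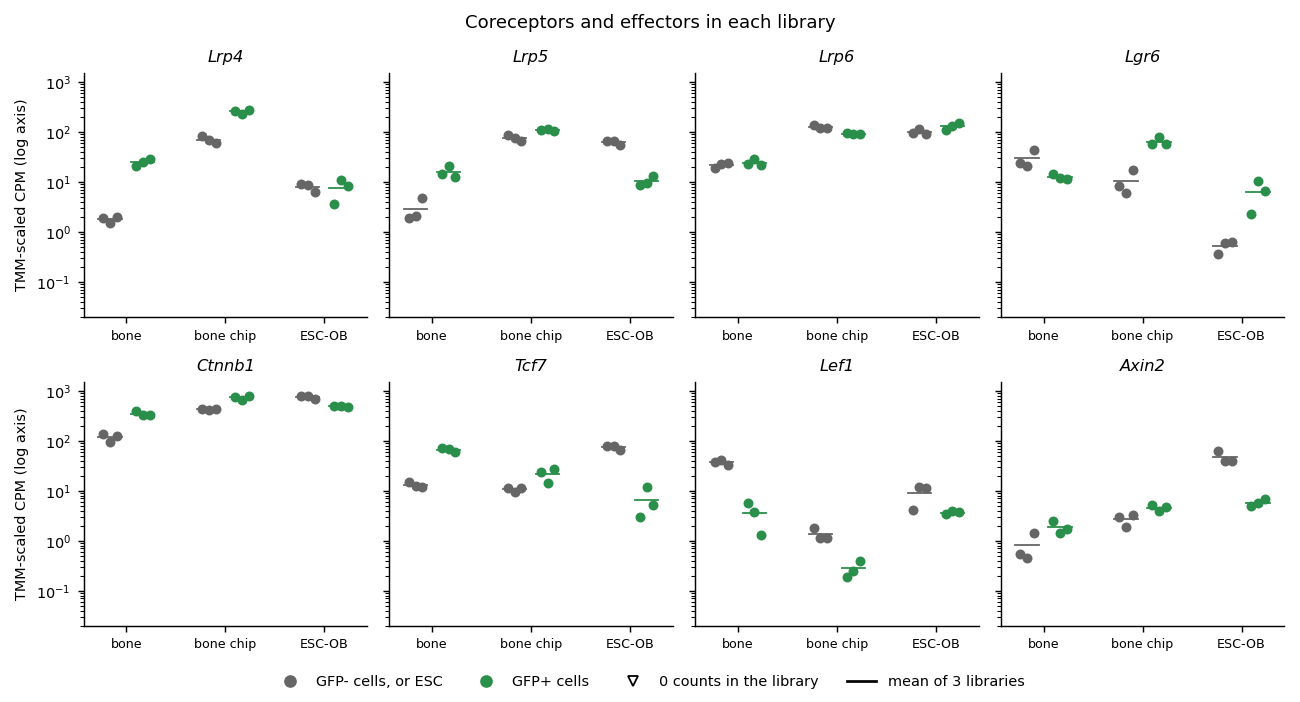
TMM-scaled CPM on a log axis of the 3 Lrp coreceptors, *Lgr6* and the 4 effectors in each library, with the reference population in grey, the GFP+ population in green and a line at the mean. *Lrp4*, *Lrp5*, *Ctnnb1* and *Tcf7* GFP+ libraries lie above the reference in bone and bone chips, and *Lef1* below it in all 3 sources.

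The effect of GFP was compared between bone and bone chips in 1 fit of 12 libraries, since both sources set GFP+ (hi) against GFP- cells. The GFP- cells differed in marker levels, each scaled within its source. Their chondrocyte genes summed to 101732 to 213066 CPM in bone and 5522 to 9574 CPM in bone chips. Their stromal genes summed to 109 to 144 CPM and 1842 to 3023 CPM. Whether a difference in effect arose in GFP+ (hi) or in GFP- cells was not tested, nor was the part of sex. Of 32 members tested, 9 had a higher and 9 a lower effect in bone, or 56.2% in either direction, where 30.3% of all 13574 genes were called, 14.7% higher and 15.6% lower. Members called in opposite directions were *Wnt5b*, with a difference (bone minus bone chip) of -3.49 (SE 0.18, adjusted p = 1.1e-07), *Lgr6*, with -3.79 (SE 0.53, adjusted p = 2.0e-04), and *Fzd1*, with 2.18 (SE 0.37, adjusted p = 8.8e-04). These were 3 of 27 members tested in both sources, or 11.1%, against 4.97% of 11789 genes. *Wnt4* and *Wnt10b*, called in bone chips alone, had differences of -2.42 (SE 0.60, adjusted p = 0.0089) and -2.43 (SE 0.44, adjusted p = 0.0013), the first being -1.84 (adjusted p = 0.024) without bone chip GFP+ (hi) replicate 3. *Wnt11* and *Fzd9*, called in bone alone, had -4.09 (SE 0.40, adjusted p = 1.1e-05) and -1.99 (SE 0.22, adjusted p = 3.1e-05).

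*Lrp4*, *Lrp5*, *Tcf7* and *Ctnnb1* rose in both sources and more in bone, by differences of 1.89 (SE 0.26, adjusted p = 1.5e-04), 1.96 (SE 0.38, adjusted p = 0.0019), 1.33 (SE 0.30, adjusted p = 0.0051) and 0.74 (SE 0.21, adjusted p = 0.018). Without bone GFP- replicate 3 that of *Lrp5* was 2.58 (adjusted p = 1.3e-04). With *Fzd3* and *Lgr4* they made up the 6 members, or 22.2%, that were higher in both sources, against 8.5% of genes. *Fzd2*, *Rspo2*, *Rspo3* and *Lef1* were lower in both, or 14.8%, against 9.3%. Of these, *Rspo2* and *Rspo3* in bone and *Rspo3* and *Lef1* in bone chips passed the filter through GFP- cells. For *Lef1* and *Rspo3* the effects did not differ detectably between the sources (adjusted p = 0.34 and 0.76). Without bone GFP+ (hi) replicates 1 and 3, the libraries that lack chromosome Y counts, 8 members were higher and 8 lower in bone, with GFP+ (hi) replicate 2 as a lone library taken to vary like the others. The calls of *Wnt5a*, *Fzd3* and *Lgr6* in bone were then lost, with 1.41 (adjusted p = 0.084), 1.30 (adjusted p = 0.15) and -1.27 (adjusted p = 0.055), whereas *Rspo3* was at -2.36 (adjusted p = 0.0069).

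**Figure D5:**
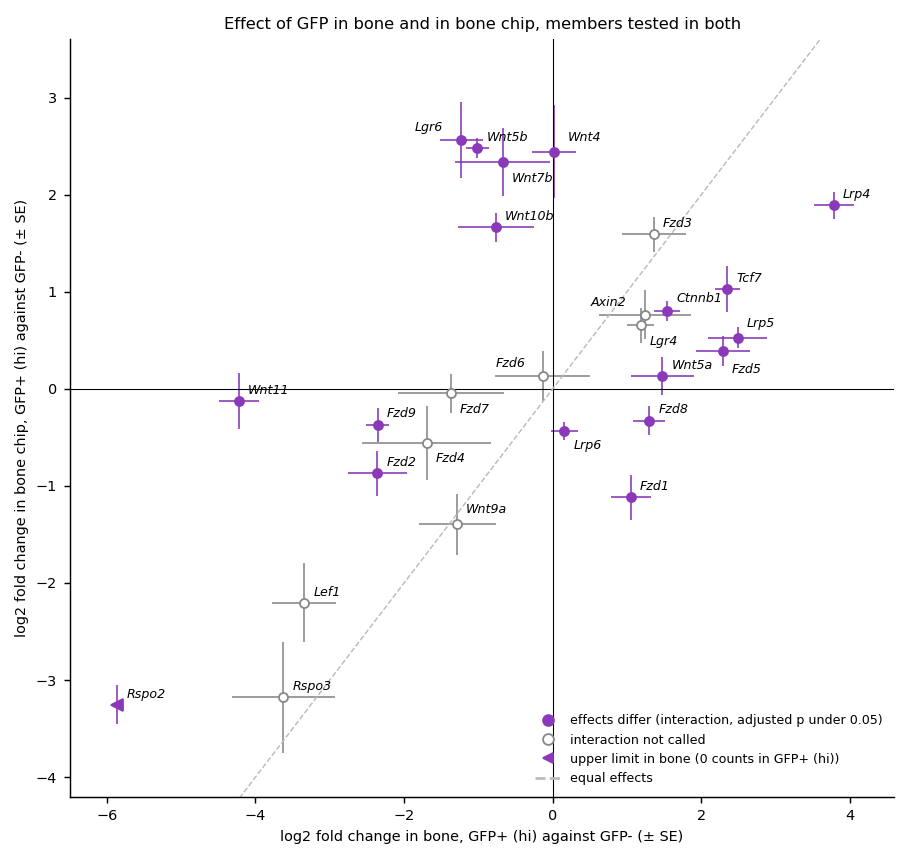
Log2 fold change of GFP+ (hi) against GFP- cells in bone (x axis) and bone chips (y axis) for the 27 members tested in both, with standard error bars and a dashed line of equal effects. Filled purple points differed between the sources in the interaction test; *Wnt5b* and *Lgr6* lie in the upper left and *Fzd1* in the lower right, and *Rspo2* is drawn at its bound in bone.

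The other genes of the pathway were counted in lists by role. Their shares are given beside those of all genes tested, which were 19.5% higher and 22.1% lower in bone, 20.4% and 23.1% in bone chips and 43% and 34.7% in ESC-OB. No list was tested against these shares. For Wnt secretion 10 genes were tested, and 2 were higher and none lower in bone (20% and 0%), 2 higher and 3 lower in bone chips (20% and 30%), and 6 higher and 2 lower in ESC-OB (60% and 20%). *Porcn*, the acyltransferase that adds the lipid to Wnt proteins, was higher in all 3. Its reference and GFP+ levels (mean ± SD, n = 3) were 2.35 ± 0.442 against 14.6 ± 2.45 CPM, log2 fold change 2.64, SE 0.30 in bone. They were 12.3 ± 1.81 against 37.6 ± 5.6 CPM, log2 fold change 1.62, SE 0.16 in bone chips and differed by 1.32 ± 0.43 on the log2 scale in ESC-OB. *Wls*, the carrier of Wnt proteins to the cell surface, rose in bone (57.9 ± 6.66 against 91.6 ± 12.3 CPM, log2 fold change 0.66, SE 0.16). It also rose in ESC-OB (10.8 ± 3.62 against 200.2 ± 21.1 CPM, log2 fold change 4.24, SE 0.24). Of 5 genes of receptor turnover, 1 was higher and 1 lower in bone (20% and 20%), 2 and 1 in bone chips (40% and 20%), and 2 and 3 in ESC-OB (40% and 60%). *Rnf43*, a ubiquitin ligase that removes frizzleds from the surface and is itself a target of the pathway, was higher in all 3. In bone it rose from 1 count in GFP- cells to 2.58 ± 0.401 CPM, and it passed the filter there through GFP+ (hi) cells alone, which fixed its direction. In bone chips it rose too (1.01 ± 0.398 against 17.9 ± 4.27 CPM, log2 fold change 4.16, SE 0.34), as it did in ESC-OB (0.644 ± 0.569 against 10.3 ± 5.01 CPM, log2 fold change 4.27, SE 0.64). For *Porcn* and *Rnf43* the share of all genes called alike in all 3 was not counted. *Kremen1*, a receptor of the Dkk inhibitors, fell in bone chips (70.7 ± 6.08 against 42.4 ± 8.01 CPM, log2 fold change -0.73, SE 0.15). It rose in ESC-OB (12.6 ± 2.6 against 111 ± 4.94 CPM, log2 fold change 3.11, SE 0.19).

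Of the destruction complex and dishevelled genes, 5 of 17 were higher and 1 was lower in bone (29.4% and 5.88%), 3 of 19 and 4 in bone chips (15.8% and 21.1%), and 7 of 19 and 6 in ESC-OB (36.8% and 31.6%). *Dvl3*, a dishevelled, rose in bone (13.2 ± 3.26 against 34.1 ± 2.49 CPM, log2 fold change 1.37, SE 0.21). The rise in bone chips was smaller in size (27 ± 3.22 against 36.6 ± 5.46 CPM, log2 fold change 0.44, SE 0.14). *Gsk3b*, the kinase that marks β-catenin for destruction, rose in bone chips (119 ± 5.17 against 217 ± 27.5 CPM, log2 fold change 0.86, SE 0.11). Of 15 nuclear partners, 4 were higher and 3 lower in bone (26.7% and 20%), 2 and 4 in bone chips (13.3% and 26.7%), and 7 and 7 in ESC-OB (46.7% and 46.7%). *Tle3*, a corepressor, rose in bone (9.64 ± 3.21 against 33.5 ± 10.7 CPM, log2 fold change 1.79, SE 0.32) and by 0.57 ± 0.11 (SE) in bone chips. Its relative *Tle1* fell in bone (28.7 ± 0.209 against 7.34 ± 3.72 CPM, log2 fold change -1.97, SE 0.32). In bone chips *Tle1* had a change of -2.02 ± 0.23. *Tcf7l2*, a further DNA-binding partner of β-catenin, rose in bone chips (18.9 ± 0.826 against 62.6 ± 5.28 CPM, log2 fold change 1.73, SE 0.095). It rose in ESC-OB as well (11.4 ± 1.82 against 103 ± 22.6 CPM, log2 fold change 3.17, SE 0.22). Among genes of signalling without β-catenin, bone had 3 higher and 4 lower of 16 (18.8% and 25%), bone chips 2 and 4 of 17 (11.8% and 23.5%), and ESC-OB 6 and 7 of 17 (35.3% and 41.2%). *Ror1*, a receptor of *Wnt5a*, fell in bone (5.86 ± 0.861 against 0.19 ± 0.0855 CPM, log2 fold change -4.82, SE 0.53). Its change in bone chips was -2.00 ± 0.34. The planar polarity gene *Celsr1* rose in bone (0.606 ± 0.477 against 3.95 ± 1.12 CPM, log2 fold change 2.68, SE 0.63) and by 4.32 ± 0.38 in bone chips.

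Of the target genes, 6 of 12 were higher and 1 was lower in bone (50% and 8.33%), with a median log2 fold change of 1.30, where all genes had -0.0013. *Rnf43* and *Znrf3* count in this list and in that of receptor turnover. In bone chips 3 of 12 were higher and 4 lower (25% and 33.3%), with a median of -0.37, and in ESC-OB 7 of 16 were higher and 6 lower (43.8% and 37.5%), with a median of 0.08. All genes had medians of -0.043 and 0.22 there. *Nkd1* and *Nkd2*, paralogous inhibitors in the cell that are targets of the pathway, moved apart in bone. *Nkd2* rose (2.81 ± 1.02 against 54.6 ± 4.71 CPM, log2 fold change 4.28, SE 0.26), and *Nkd1* fell (16.4 ± 2.1 against 1.61 ± 0.283 CPM, log2 fold change -3.35, SE 0.29). *Tnfrsf19* rose in bone (3.25 ± 2.12 against 99.6 ± 21.4 CPM, log2 fold change 4.92, SE 0.41) and by 1.72 ± 0.23 in bone chips. *Wisp1*, a matrix protein of osteoblasts, rose in bone chips (48.7 ± 8.18 against 399.7 ± 44.4 CPM, log2 fold change 3.03, SE 0.16). In ESC-OB *Nkd1* and *Nkd2* both rose, to 92.2 ± 32.4 and 94.7 ± 27.8 CPM (SD, n = 3), while *Axin2* fell. *Cdx1*, *T* and *Cdx2*, early embryonic targets, were uneven in ESC, at 78.2, 7.49 and 5.66 CPM, 14, 2.72 and 1.68 CPM and 10.7, 0.832 and 1.26 CPM, replicate 1 being the highest in each, and had ESC-OB means of 0.0786 ± 0.108, 0.194 ± 0.27 and 0.174 ± 0.152 CPM.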

How the data were processed

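RNA was sequenced as poly-A selected libraries of 6 sorted or cultured mouse cell populations with 3 libraries each. The authors aligned reads with STAR 2.4.2a to mm9 and deposited counts per RefSeq gene as 3 tables. The counting program, its strand setting and its use of reads with several matches are not given in the sources used here. Totals were 4920977 to 43874837 counts per library, and this depth sets the precision of low genes. GFP+ (lo) populations were not analysed here.

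Counts were tested with edgeR 4.0.16 in R 4.3.3 (filterByExpr with a minimum count of 10, TMM, quasi-likelihood test, Benjamini-Hochberg adjustment over all genes tested, threshold 0.05), for each source alone and, for the interaction, in 12 libraries. The scripts were tested on simulated counts. CPM per kb used exon lengths of the GENCODE annotation of mm9. Bounds took 3 counts over a group with 0 counts. Same-numbered bone chip libraries deviated together (correlations 0.158, 0.329 and 0.397), which no other source reached for every number. Their numbers were taken to pair them, though the labels name no shared animal or culture. The main fits did not use this pairing. DESeq2 1.42.0, other scalings and filters, thinning to 4920977 counts, a threshold of 1 on the log2 scale, a replicate block, all 18 libraries in 1 fit and each library left out were alternatives. The fits without both bone GFP+ (hi) libraries that lack chromosome Y counts were planned for bone and added for the interaction after seeing the data.

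Values per library are given for members called with at least 1 CPM in the higher group, and up to 3 genes per direction and comparison are named from each pathway list. Members and lists were chosen with earlier results of these data known.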

Additional observations from a re-analysis of the deposited data

Results flagged for a closer look

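In 18 members the effect of GFP (log2 fold change of GFP+ (hi) against GFP- cells) differed between bone and bone chips in edgeR's interaction test, each value being the bone effect minus the bone chip effect. In 9 of them it was higher in bone: 3 frizzleds, 3 coreceptors, 2 effectors and 1 ligand. The differences were 2.18 for *Fzd1*, 1.96 for *Lrp5*, 1.90 for *Fzd5*, 1.89 for *Lrp4*, 1.63 for *Fzd8*, 1.34 for *Wnt5a*, 1.33 for *Tcf7*, 0.74 for *Ctnnb1* and 0.59 for *Lrp6*. In 9 it was lower in bone, and 5 of these were ligands. The values were -4.09 for *Wnt11*, -3.79 for *Lgr6*, -3.49 for *Wnt5b*, -3.00 for *Wnt7b*, -2.43 for *Wnt10b*, -2.42 for *Wnt4*, -1.99 for *Fzd9* and -1.50 for *Fzd2*. *Rspo2* had a fitted difference of -5.24, which depends on the prior count because bone GFP+ (hi) cells held 0 counts. Whether these differences arose in the GFP+ (hi) or in the GFP- cells was not tested.

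The calls of *Wnt5a*, *Lrp6* and *Fzd2*, with adjusted p = 0.046, 0.034 and 0.017, were each lost when some single libraries were left out. The call of *Wnt5a* was lost without bone GFP- replicate 2 or 3, bone GFP+ (hi) replicate 2 or 3, bone chip GFP- replicate 1 or 3, or bone chip GFP+ (hi) replicate 2 or 3, with values from 1.14 to 1.48. With the replicate block, which pairs the libraries of both sources by number, *Wnt5a* was at 1.41 (adjusted p = 0.057). That of *Lrp6* was lost without bone GFP- replicate 1, bone GFP+ (hi) replicate 2, bone chip GFP- replicate 1 or any bone chip GFP+ (hi) library, with values from 0.48 to 0.64. *Fzd2* was at -1.32 (adjusted p = 0.051) without bone GFP- replicate 3, -1.26 (adjusted p = 0.058) without bone chip GFP- replicate 3 and -1.31 (adjusted p = 0.0501) without bone chip GFP+ (hi) replicate 1. *Wnt7b* was at -2.29 (adjusted p = 0.043) without bone GFP- replicate 1 and at -3.66 (adjusted p = 0.0042) without bone GFP+ (hi) replicate 2. *Lgr4* was called without bone chip GFP- replicate 2, 0.81 (adjusted p = 0.018).

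Without both bone GFP+ (hi) libraries that lack chromosome Y counts, 8 members had a higher and 8 a lower effect in bone. *Wnt5a* then had 1.27 (adjusted p = 0.12), *Wnt7b* -2.15 (adjusted p = 0.082), *Ctnnb1* 0.68 (adjusted p = 0.088) and *Rspo2* -5.07 (adjusted p = 0.051), while *Fzd6* was called with -2.03 (adjusted p = 0.029) and *Lgr5* with 2.84 (adjusted p = 0.016). Thinned to equal totals, the calls of *Wnt7b*, -2.63 (adjusted p = 0.066), and *Rspo2*, -3.75 (adjusted p = 0.064), were lost, and with upper-quartile factors those of *Wnt5a*, 1.27 (adjusted p = 0.061), and *Lrp6*, 0.52 (adjusted p = 0.056).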

How the results depend on the processing

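No member turned its direction past the threshold in the alternatives run. A required change of 1 on the log2 scale, which by construction drops smaller changes, left 5 members higher in bone, 8 higher in bone chips and 5 lower in bone chips. Other counts stayed within 1.5 times of those reported. With each library left out in turn, 8 to 10 members were higher and 9 to 10 lower in bone, 11 to 13 and 9 to 11 in bone chips, and 21 to 24 and 6 to 7 in ESC-OB. The interaction then gave 7 to 10 higher and 8 to 9 lower effects in bone. Of the members called, 12 of 19 in bone, 13 of 23 in bone chips, 26 of 30 in ESC-OB and 12 of 18 in the interaction kept their call in every alternative that gave them a value. No value was had in at least 1 alternative for 1 of these in bone, 2 in bone chips and 3 among those of ESC-OB. Thinned to equal totals, 9 members were higher and 10 lower in bone, 11 and 9 in bone chips and 21 and 7 in ESC-OB, and *Wnt5a* in bone was at 1.18 (adjusted p = 0.064). *Wnt7b*, *Wnt9a* and *Lef1* in bone chips and *Wnt2*, *Wnt7a* and *Wnt16* in ESC-OB fell below the filter when thinned. Calls were gained by *Wnt9a* in bone, -1.58 (adjusted p = 0.038), *Fzd8* in bone chips, -0.50 (adjusted p = 0.022), and *Lrp6* in ESC-OB, 0.39 (adjusted p = 0.037). The fit of all 18 libraries added *Wnt9a*, -1.16 (adjusted p = 0.047), and *Fzd7*, -1.23 (adjusted p = 0.048), in bone and *Lrp6* in ESC-OB, 0.37 (adjusted p = 0.03). DESeq2's scaling moved the median of all genes in bone from -0.0013 to -0.11.

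With the replicate block 9 members were higher and 9 lower in bone, 14 and 10 in bone chips and 23 and 7 in ESC-OB, and 8 had a higher and 9 a lower effect in bone than in bone chips. In bone and ESC-OB the libraries share only a number, and *Fzd3* in bone was at 1.42 (adjusted p = 0.054). In bone chips and the interaction the block changed no call but those given for *Fzd5* and *Wnt5a*.

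Depth differed between the populations of bone, with totals of 5482065 to 6468750 counts in GFP- and 21425212 to 43874837 in GFP+ (hi) cells. ESC replicates 2 and 3 differed by more than sampling noise (chi-square of 1.68 per degree of freedom) but by less than any other pair of 1 group (6.76 to 125), and were counted as separate libraries.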
